A study of Mus musculus with 6 samples.

Results

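MHC class I antigen presentation was described by 10 genes in cells sorted from mouse thyroid tumors: H2-K1, H2-D1, B2m, Tap1, Tap2, Tapbp, Psmb8, Psmb9, Psmb10 and Nlrc5. They were chosen by symbol, and all 10 are among the 35027 genes of the deposited table. The question was whether their mRNA levels differ between tumors driven by mutant YAP alone (YAP) and tumors that also carry mutant Braf (BrafYAP). For B2m, Tap2, Psmb8, Psmb9, Psmb10 and Nlrc5, every BrafYAP library was lower than every YAP library, with group means 2.84-fold to 11.8-fold apart. On scaled reads (deposited values with the length division undone) this held for 6 of 10 genes, against 17.1% of 16806 genes tested. The gap was narrow for Psmb8, with the lowest YAP library 1.07-fold above the highest BrafYAP library. For H2-K1, H2-D1, Tap1 and Tapbp the groups overlapped. None of the 10 differences passed the adjusted threshold of 0.05 in limma, a linear model fitted over all genes.

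Class I molecules display short peptides from proteins made inside the cell to CD8 T cells. Proteasomes cut the proteins, and the inducible subunits encoded by Psmb8, Psmb9 and Psmb10 replace constitutive ones to form the immunoproteasome. The transporter made of Tap1 and Tap2 carries peptides into the endoplasmic reticulum, where Tapbp (tapasin) bridges it to empty class I molecules, which consist of a heavy chain (H2-K1 or H2-D1) and the light chain beta-2 microglobulin (B2m). Nlrc5 is a transactivator known to act on the heavy chain genes and B2m, and interferons are known to induce the pathway. Whether Nlrc5 acts on any of the listed genes in these tumors was not tested.

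Both genotypes carried a doxycycline (dox)-dependent transgene, active in thyroid follicular cells, for YAPS127A, a nuclear mutant of the Hippo effector YAP. BrafYAP mice also expressed BrafV600E from the endogenous gene. By the labels, mice were given dox chow from 4 weeks of age and about 20000 cells positive for the red reporter Kate were sorted per library. By the study's supplement the animals had a mixed background, and strain was not examined here. The age of the mice at tumor collection was not used here. There were 3 YAP libraries (replicates 1, 2 and 3), each a pool of 3 tumors, and 3 BrafYAP libraries (replicates 1, 2 and 6), each of 1 tumor. Pooling and genotype therefore cannot be told apart. The study's text gives the tumors per replicate and the start of dox differently, and the labels were followed. The labels name no mouse behind a library, so p-values measure the spread between these libraries.

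The libraries held 26.2 to 36.9 M estimated reads. Values of single genes are the deposited TPM, which the authors had divided by genomic span, so they are compared within a gene only. Levels between genes and sums over genes are given as TPM recalculated with exonic length (length-corrected TPM). On that scale, epithelial markers summed to 7543 to 23228 in YAP and 9489 to 22928 in BrafYAP. Among thyroid markers, Pax8 was at 75.9 to 219.5 and Nkx2-1 at 4.65 to 23.1 over the 6 libraries, whereas the differentiation genes Slc26a4 and Duox2 were at most 1.32 and at 0 in most libraries. Myeloid transcripts were present after the sort. The 10 macrophage and myeloid markers summed to 49647, 39638 and 15837 in YAP replicates 1 to 3 and to 14887, 11049 and 3939 in BrafYAP replicates 1, 2 and 6, with Lyz2 the most abundant. On scaled reads, 8 of 10 of these markers were lower in each BrafYAP library than in each YAP library, against 17.1% of all genes tested. YAP replicate 1 also stood apart by base composition, as described with the GC values.

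Promoter windows (250 bases before to 50 after the start, RefSeq, GRCm38.p6) were matched for 8 of the 10 genes. Tap2 and Nlrc5 had no entry. The windows of both heavy chains and B2m are shown because they share an arrangement through which Nlrc5 is known to be recruited, the X2 box (TGACG) and the Y box (ATTGG) 20 bases apart. The window of Psmb9 is shown as that of the gene pair Tap1 and Psmb9, whose windows on opposite strands share 275 bases. Capitals mark X2 and Y boxes and interferon-related motifs.
H2-K1 (chr17:34000284-34000583, minus strand): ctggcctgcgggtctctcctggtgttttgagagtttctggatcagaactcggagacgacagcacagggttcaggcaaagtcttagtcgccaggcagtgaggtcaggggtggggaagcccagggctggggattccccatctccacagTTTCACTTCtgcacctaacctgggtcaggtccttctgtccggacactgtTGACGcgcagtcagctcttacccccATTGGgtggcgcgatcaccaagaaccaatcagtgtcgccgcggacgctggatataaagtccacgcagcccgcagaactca
H2-D1 (chr17:35262844-35263143, plus strand): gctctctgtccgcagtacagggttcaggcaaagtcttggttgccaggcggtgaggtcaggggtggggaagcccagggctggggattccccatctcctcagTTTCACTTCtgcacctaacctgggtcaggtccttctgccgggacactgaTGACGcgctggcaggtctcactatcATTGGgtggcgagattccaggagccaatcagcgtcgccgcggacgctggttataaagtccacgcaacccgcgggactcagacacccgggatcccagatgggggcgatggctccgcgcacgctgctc
B2m (chr2:122147437-122147736, plus strand): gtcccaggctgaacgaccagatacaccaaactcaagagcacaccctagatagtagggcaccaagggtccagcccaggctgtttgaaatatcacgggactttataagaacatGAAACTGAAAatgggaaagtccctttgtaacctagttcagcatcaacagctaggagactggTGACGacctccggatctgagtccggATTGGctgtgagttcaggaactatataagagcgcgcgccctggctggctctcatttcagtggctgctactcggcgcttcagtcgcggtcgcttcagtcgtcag
Psmb9 (chr17:34187281-34187580, minus strand): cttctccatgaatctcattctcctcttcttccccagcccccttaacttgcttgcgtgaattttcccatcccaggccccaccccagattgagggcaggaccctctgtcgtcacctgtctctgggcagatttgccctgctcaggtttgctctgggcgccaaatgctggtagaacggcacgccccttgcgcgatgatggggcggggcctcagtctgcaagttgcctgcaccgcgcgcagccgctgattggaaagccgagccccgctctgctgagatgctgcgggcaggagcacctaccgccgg

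TGACG, 20 bases of any kind and ATTGG were found in 31 of 32851 promoter windows (0.0944%), searched on both strands. Among the 10 genes the match was present in H2-K1, H2-D1 and B2m, beginning 55, 101 and 78 bases before the annotated start. A second annotated start of H2-K1 places the same match 41 bases before it. Of the other listed genes, the class Ib gene H2-M3 had it. The interferon response form, GAAA repeated after 2 bases of any kind, was present in B2m and in 3.44% of windows. The shorter form GAANNGAAA, which can overlap it, was present on the reverse strand of H2-K1 and H2-D1 and in 7.52% of windows. A TTCNNNGAA match, the core of a gamma-activated site, was present in Psmb8 and in 8.3% of windows. None of these letters were matched in the windows of Psmb9, Tap1, Tapbp or Psmb10. The promoters of H2-K1 and H2-D1 were identical at 222 of 253 aligned bases (87.7%), against 51.3% for H2-K1 and B2m.

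The heavy chain gene H2-K1 (chr17:33996017-34000347, minus strand, mm10) was at 179, 801 and 333 in YAP replicates 1 to 3 and at 165, 110 and 647 in BrafYAP replicates 1, 2 and 6. One library in each group was high, YAP replicate 2 and BrafYAP replicate 6, and the groups overlapped. The YAP mean of 437.8 ± 324.1 was 1.43-fold the BrafYAP mean of 307.2 ± 295.4 (SD, n = 3 each). The log2 difference (BrafYAP minus YAP, on log2(value + 1)) was -0.67 (SE 0.78, 95% interval -2.52 to 1.17, limma adjusted p = 0.649). It was -0.10 without YAP replicate 2, -0.15 without BrafYAP replicate 2 and -1.43 without BrafYAP replicate 6. H2-D1 (chr17:35262730-35267499, plus strand), the second classical heavy chain, had the same high libraries. It was at 134, 1336 and 330 in YAP and at 292, 207 and 1106 in BrafYAP. Its log2 difference was 0.06 (SE 0.94, 95% interval -2.16 to 2.28, limma adjusted p = 0.978), and its direction depended on single libraries, with 0.95 without YAP replicate 2 and -0.71 without YAP replicate 1. Of the 50-nt windows of their transcripts, 8.11% (H2-K1) and 14.3% (H2-D1) also occur in other genes, so reads could be divided between them.

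B2m (chr2:122147686-122153083, plus strand) encodes the light chain shared by all class I molecules. It was at 625, 394 and 260 in YAP and at 73.4, 69.2 and 206 in BrafYAP. Each BrafYAP library was below each YAP library, and BrafYAP replicate 6 was again the highest of its group. The means were 426.4 ± 184.9 in YAP and 116.2 ± 77.8 in BrafYAP (SD, n = 3 each), 3.67-fold apart, with a log2 difference of -1.97 (SE 0.52, 95% interval -3.20 to -0.73, limma unadjusted p = 0.007, adjusted p = 0.113). In bulk RNA, fewer cells of a type and less RNA per cell cannot be told apart, here and below.

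Light chain and heavy chains did not keep a fixed proportion. By length-corrected TPM, the ratio of B2m to H2-K1 was 14.9 in YAP replicate 1 but 2.1 and 3.32 in YAP replicates 2 and 3, and 1.89, 2.69 and 1.36 in BrafYAP. YAP replicate 1 stood far above the others, and the groups overlapped. That library was low in GC-rich transcripts, and the GC content was 41.2% for B2m and 54.3% for H2-K1. Among genes in the same eighth by GC content, its median log2 deviation from the gene means was 0.21 for B2m and -0.02 for H2-K1. The part of GC content in this ratio was not tested. The ratio of H2-D1 to H2-K1 was 0.936, 2.09 and 1.24 in YAP and 2.22, 2.37 and 2.14 in BrafYAP, above YAP in each BrafYAP library.

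**Figure D1:**
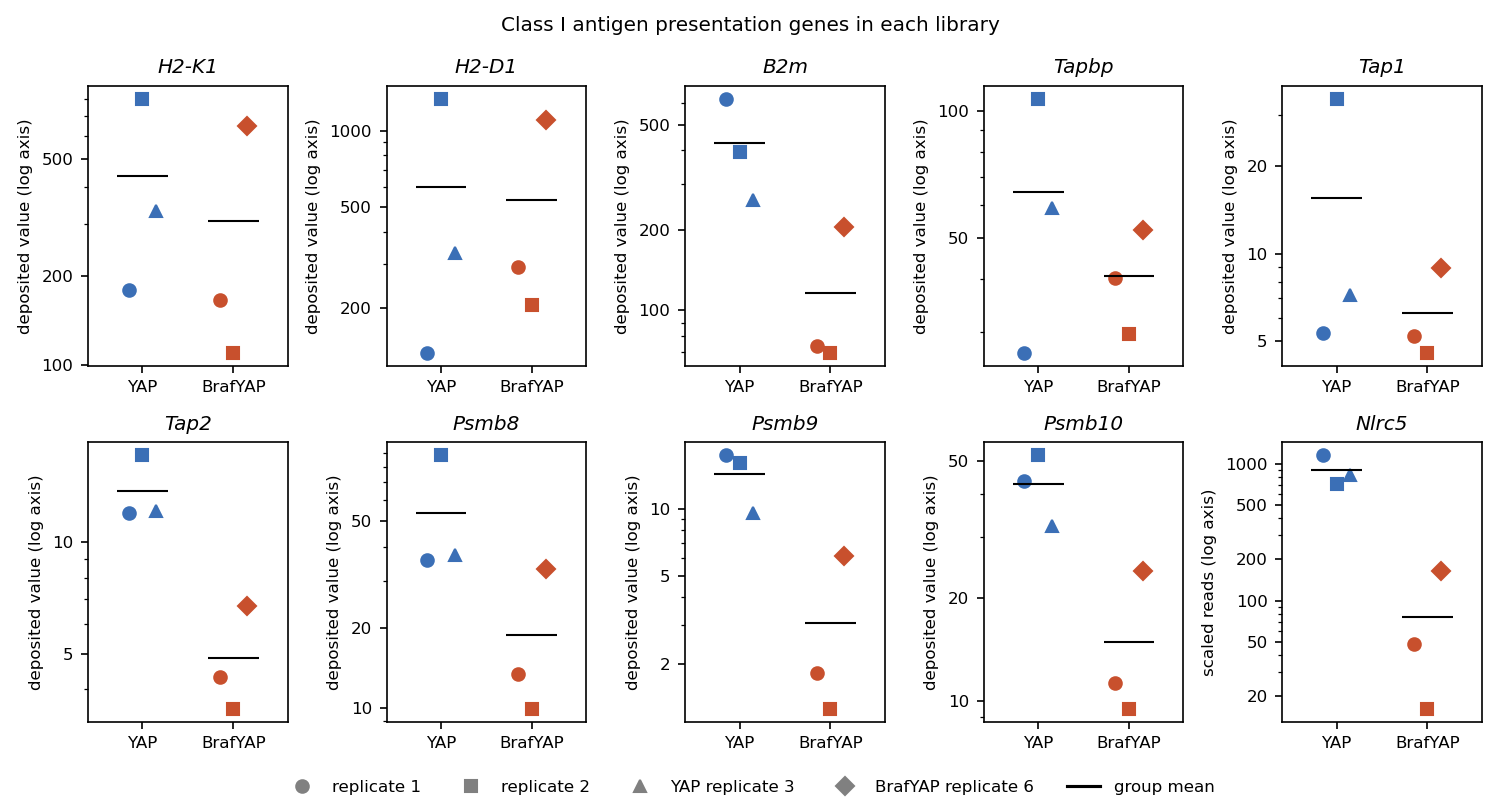
Level of each of the 10 class I genes in each library (deposited value, or scaled reads for Nlrc5, on log axes), with points for libraries and lines for group means. B2m, Tap2, Psmb8, Psmb9, Psmb10 and Nlrc5 are lower in all 3 BrafYAP libraries than in all 3 YAP libraries, and BrafYAP replicate 6 is the highest of its group in all 10 panels.

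In the peptide transporter, the subunits differed in how clearly the groups separated. Tap2 (chr17:34203527-34216321, plus strand) was at 12.0, 17.2 and 12.2 in YAP and at 4.33, 3.54 and 6.70 in BrafYAP. The groups did not overlap, and the lowest YAP library was 1.79-fold above the highest BrafYAP library. The means of 13.8 ± 2.96 and 4.86 ± 1.65 (SD, n = 3 each) were 2.84-fold apart, and the log2 difference was -1.35 (SE 0.29, 95% interval -2.04 to -0.67, limma unadjusted p = 0.00221, adjusted p = 0.0897). Tap1 (chr17:34187553-34197225, plus strand) was at 5.31, 34.2 and 7.21 in YAP and at 5.19, 4.54 and 8.93 in BrafYAP. YAP replicate 2 alone was high, and the other libraries of both groups interleaved. The log2 difference of Tap1 was -0.81 (SE 0.65, 95% interval -2.33 to 0.72, limma adjusted p = 0.508) and was -0.04 without YAP replicate 2. Whether Tap1 and Tap2 differ from each other in response was not tested. Tap2 overlaps Gm20496 and Gm15821, and 12.6% of its 50-nt windows are shared, so part of its reads could be theirs.

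Tapbp (chr17:33915899-33929292, plus strand), the tapasin gene, was at 26.7, 107 and 58.8 in YAP and at 40.2, 29.7 and 52.4 in BrafYAP. All 3 BrafYAP libraries lay inside the YAP range. The log2 difference was -0.47 (SE 0.51, 95% interval -1.68 to 0.74, limma adjusted p = 0.627) and was -0.98 without YAP replicate 1 and -0.001 without YAP replicate 2. Tapbp overlaps Zbtb22 and Gm19412, and 21.0% of its 50-nt windows also occur in other genes, so part of its reads could be theirs.

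All 3 immunoproteasome genes were lower in each BrafYAP library than in each YAP library. Psmb9 (chr17:34181987-34187764, minus strand; beta-1i) was at 17.4, 16.1 and 9.54 in YAP and at 1.82, 1.25 and 6.11 in BrafYAP. BrafYAP replicates 1 and 2 held 12.7% and 8.75% of the YAP mean, and replicate 6 held 42.7%. The means of 14.3 ± 4.21 and 3.06 ± 2.66 (SD, n = 3 each) were 4.68-fold apart, with a log2 difference of -2.06 (SE 0.47, 95% interval -3.17 to -0.95, limma unadjusted p = 0.00315, adjusted p = 0.0946). Psmb10 (chr8:105935735-105938444, minus strand; beta-2i) lies outside the MHC. It was at 43.9, 52.1 and 32.3 in YAP and at 11.3, 9.50 and 23.98 in BrafYAP, a log2 difference of -1.54 (SE 0.39, 95% interval -2.46 to -0.62, limma unadjusted p = 0.00547, adjusted p = 0.106). Psmb8 (chr17:34197721-34201454, plus strand; beta-5i) was at 35.7, 88.5 and 37.5 in YAP and at 13.5, 9.94 and 33.2 in BrafYAP. Its separation was narrow, with the lowest YAP library 1.07-fold above the highest BrafYAP library, and the log2 difference was -1.52 (SE 0.53, 95% interval -2.78 to -0.25, limma unadjusted p = 0.0251, adjusted p = 0.182). Psmb8 overlaps Gm20496, and 4.95% of its 50-nt windows also occur in that gene. Psmb9 and Psmb10, on different chromosomes, followed each other closely over the 6 libraries (r = 0.994). This is a description over libraries of both groups, so it includes the difference between the groups.

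The constitutive subunits that the immunosubunits replace differed less between the groups. Psmb5 had a log2 difference of -0.13, Psmb6 of -0.21 and Psmb7 of -0.17, with overlapping groups and limma adjusted p of 0.791, 0.659 and 0.701. The ratio of Psmb9 to Psmb6, by length-corrected TPM, was 0.130, 0.159 and 0.0974 in YAP and 0.0196, 0.0126 and 0.0666 in BrafYAP. That of Psmb10 to Psmb7 was 1.68, 4.05 and 1.56 in YAP and 0.747, 0.516 and 1.59 in BrafYAP. The groups were apart for Psmb9 to Psmb6, whereas BrafYAP replicate 6 reached the YAP range for Psmb10 to Psmb7. For Psmb8 to Psmb5 it did so too, with 0.293, 0.793 and 0.246 in YAP and 0.104, 0.0910 and 0.2997 in BrafYAP. On the log2 ratio of deposited values plus 1, the 3 ratios differed by -1.39 (Psmb8 to Psmb5), -1.85 (Psmb9 to Psmb6) and -1.38 (Psmb10 to Psmb7). The exact two-sided permutation p was 0.3, 0.1 and 0.1, or 0.3, 0.15 and 0.15 adjusted over the 3 ratios, and 0.1 is the smallest p that 3 libraries against 3 allow. With a pseudocount of 0.1 or 0.0001 the exact p of Psmb10 to Psmb7 was 0.2. Without YAP replicate 2 the Psmb8 to Psmb5 difference was -0.87.

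**Figure D2:**
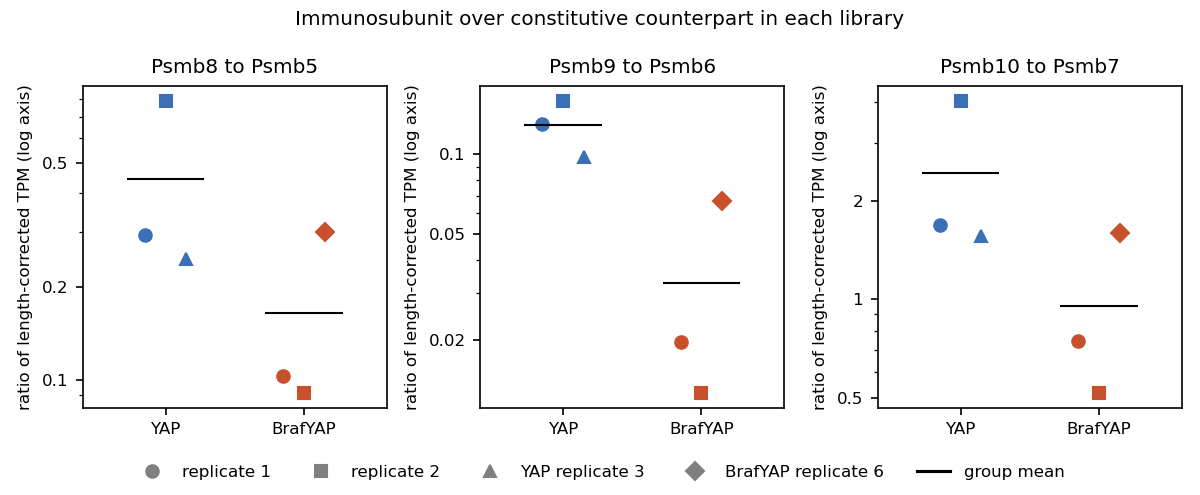
Ratio of each immunoproteasome subunit to the constitutive subunit it replaces, by length-corrected TPM on log axes, with points for libraries and lines for group means. The Psmb9 to Psmb6 ratio is below the YAP libraries in all 3 BrafYAP libraries, and BrafYAP replicate 6 reaches the YAP range in the other ratios.

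Nlrc5 (chr8:94434356-94527272, plus strand) had the widest gap of the 10 genes between group means. Its gene body spans 92917 bases, and its deposited values averaged under the minimum of 1, so scaled reads (deposited values with the length division undone) were used. They were 1163, 713 and 836 in YAP and 48, 16 and 165 in BrafYAP. The lowest YAP library was 4.31-fold above the highest BrafYAP library. The means of 903.9 ± 232.6 and 76.6 ± 78.4 (SD, n = 3 each) were 11.8-fold apart, and the log2 difference was -4.09 (SE 0.77, 95% interval -5.90 to -2.27, limma unadjusted p = 0.00101, adjusted p = 0.0837). Without BrafYAP replicate 6 it was -4.92 and passed the threshold (limma adjusted p = 0.0279). With each other library left out it ranged from -4.24 to -3.29 and did not pass.

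Of the 9 genes tested on deposited values, 0 passed the adjusted threshold in limma, against 0.246% of the 7319 genes tested. At an unadjusted p under 0.05, 5 of 9 were lower in BrafYAP, against 9.17% of all genes, and 0 were higher (10.7% of all genes). In the same 5 genes all BrafYAP libraries were below all YAP libraries, against 16.4% of all genes. On scaled reads all 10 genes could be tested, of which 0 passed the adjusted threshold (0% of 16806 genes), 6 were lower at an unadjusted p under 0.05 (10.6% of all genes) and 6 did not overlap (17.1%). The median log2 difference was -1.35 over the 9 genes and -0.06 over all genes. With array weights, which give each library its own weight, 7 of 9 (limma's default, which did not converge) or 5 of 9 (gene by gene) passed, against 42.3% and 19% of all genes. The 10 genes are members of a single pathway and share libraries, so they are not independent replicates.

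**Figure D3:**
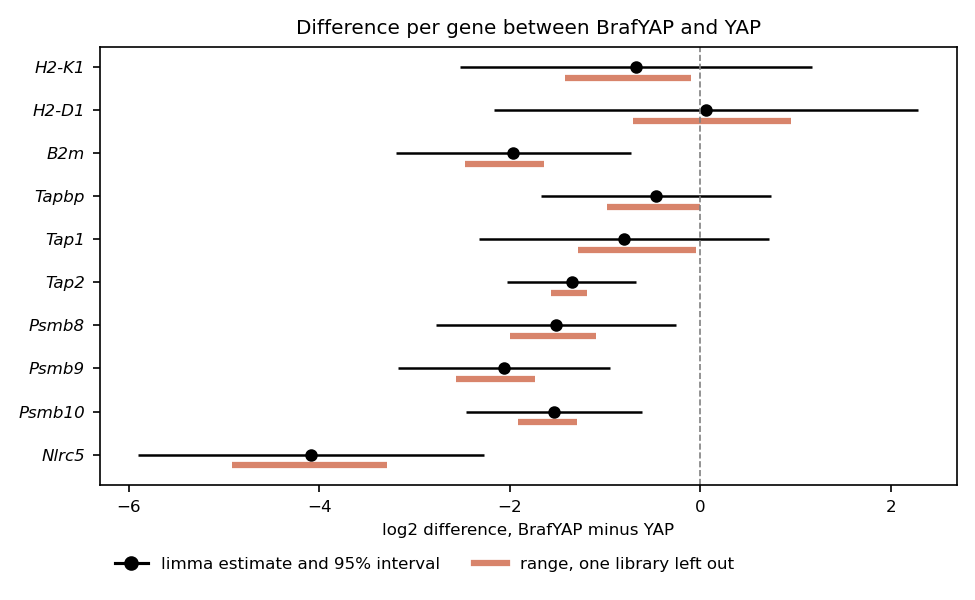
Log2 difference (BrafYAP minus YAP) of the 10 genes with 95% limma intervals in black, and in orange the range of estimates when each library was left out in turn; Nlrc5 is on scaled reads. Intervals of B2m, Tap2, Psmb8, Psmb9, Psmb10 and Nlrc5 lie below 0, and that of H2-D1 extends from -2.16 to 2.28.

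By length-corrected TPM the order of mean levels in YAP was B2m (6940), H2-D1 (2834), H2-K1 (1662), Tapbp (613), Psmb10 (176), Psmb8 (154), Tap2 (121), Tap1 (70.2), Psmb9 (58.6) and Nlrc5 (9.32). In BrafYAP it was H2-D1 (2655), B2m (1962), H2-K1 (1215), Tapbp (406), Psmb10 (63.9), Psmb8 (56.0), Tap2 (44.3), Tap1 (29.6), Psmb9 (13.0) and Nlrc5 (0.810). The orders of means differed only in H2-D1 and B2m. In both groups the range of Tapbp lay above that of Psmb10 and the range of Psmb9 above that of Nlrc5, and the ranges of the other neighbours in each order overlapped.

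Of the MHC class Ib and class I-like genes, whose products present restricted peptides or lipids or have other roles, 11 of 18 could be tested. At an unadjusted p under 0.05, 5 of 11 were lower and 0 higher in BrafYAP (9.17% and 10.7% of all genes), 0 passed the adjusted threshold, and the median log2 difference was -1.07 on deposited values. H2-T22 was at 41.0, 35.9 and 21.1 in YAP and at 8.10, 8.60 and 14.2 in BrafYAP (log2 difference -1.56, limma adjusted p = 0.0911). H2-M3, which presents formylated peptides, was at 16.6, 15.1 and 7.68 in YAP and at 4.93, 3.96 and 3.87 in BrafYAP (-1.37, limma adjusted p = 0.0953). H2-Q7 had log2 difference -3.24 (limma adjusted p = 0.128) and H2-M2 -1.51 (0.148), also without overlap. The H2-T22 sequence is 58.6% shared with other genes in 50-nt windows and that of H2-Q7 28.5%, so their reads are uncertain. H2-T9 was not analysed here.

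Genes of peptide loading in the endoplasmic reticulum went in both directions, and 0 of 6 tested passed the adjusted threshold. At an unadjusted p under 0.05, 1 was lower and 1 higher (9.17% and 10.7% of all genes). Calr (calreticulin) had a log2 difference of -0.40 and Canx (calnexin) of 0.17, with limma adjusted p of 0.387 and 0.737. Pdia3 was at 2.69, 24.4 and 7.93 in YAP and at 22.6, 26.3 and 40.7 in BrafYAP (1.67, limma unadjusted p = 0.0408, adjusted p = 0.229), and YAP replicate 1 held its lowest value. Tapbpl, the tapasin-like editor, was at 11.1, 11.2 and 10.6 in YAP and at 5.41, 4.66 and 6.501 in BrafYAP (-0.88, limma adjusted p = 0.102). Of the cytosolic peptidases, 2 of 5 could be tested, Lap3 (-0.19) and Thop1 (1.19), and neither had an unadjusted p under 0.05. Of the proteasome activators, Psme2 had -0.96 (limma unadjusted p = 0.00792, adjusted p = 0.121), Psme1 -0.52 and Psme3 1.30, and 0 of 3 passed.

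Of the 20S core subunits with the assembly factor Pomp, 15 of 15 were tested. In either direction, 0 had an unadjusted p under 0.05 (19.9% of all genes). The list had a median log2 difference of -0.19. Its values by smallest p were Pomp -0.48, Psma1 -0.41, Psma4 -0.41 and Psmb4 0.50. Of the transcription factors known to act at class I promoters, 6 of 11 were tested and 0 passed. Of the 6, 2 were lower at an unadjusted p under 0.05 (9.17% of all genes). Irf1, an interferon-induced factor, was at 20.1, 37.2 and 22.6 in YAP and at 11.1, 10.7 and 13.0 in BrafYAP (-1.09, limma adjusted p = 0.121). Its groups did not overlap. Nfyb (-0.38) and Rfxank (-0.36) had smaller differences.

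The interferon response list held the only tested pathway genes past the adjusted threshold. Of 16 tested, 3 were lower in BrafYAP (0.164% of all genes were so called), namely the chemokine gene Cxcl10 (log2 difference -4.03), the ubiquitin-like Isg15 (-3.09) and the antiviral Rsad2 (-1.43), each with a limma adjusted p of 0.0468. At an unadjusted p under 0.05, 11 were lower and 1 was higher (9.17% and 10.7% of all genes), and the median was -1.30. Over all other pathway lists, 3 of 59 tested genes passed. The count was 0 without replicate 1 or 3 of YAP, and likewise without replicate 1 or 2 of BrafYAP. Without YAP replicate 2 it was 7 of 59, where 6.39% of all genes passed. Without BrafYAP replicate 6 it was 6 of 60, where 0.276% of all genes passed. Among the listed interferon genes, Ifng was at 0.0212, 0.0169 and 0 in YAP and at 0 in all BrafYAP libraries. Ifnb1 was at 0 in 3 of the 6 libraries and reached 1.22 in BrafYAP replicate 6.

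**Figure D4:**
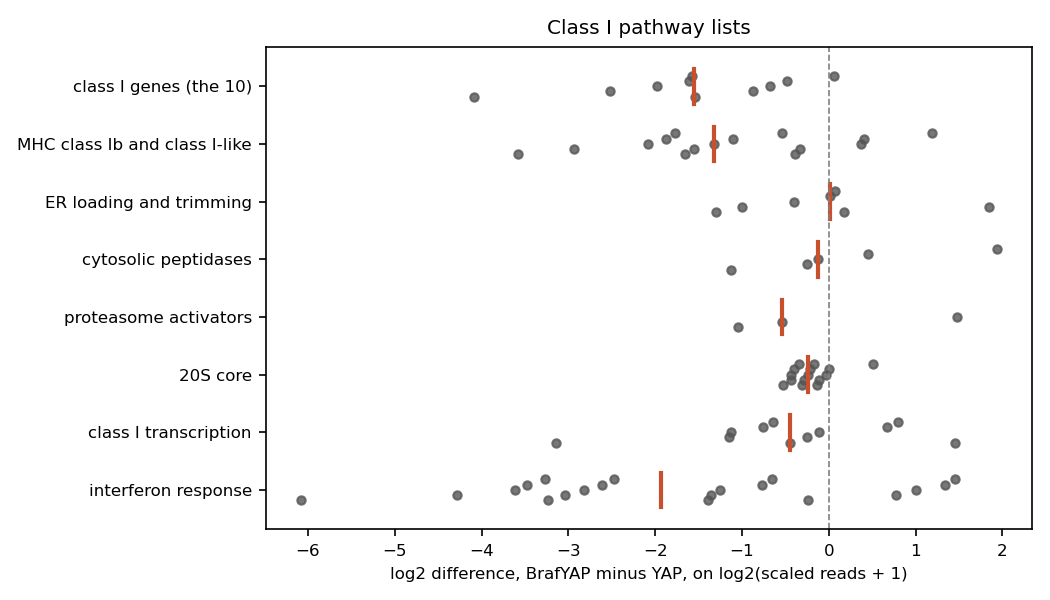
Log2 difference (BrafYAP minus YAP, on scaled reads so that all 10 class I genes are included) of each gene in the class I pathway lists, with orange bars for list medians. Medians are -1.56 for the 10 genes, -1.33 for class Ib and class I-like genes, -0.24 for the 20S core and -1.94 for interferon response genes.

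Myeloid cells carry class I and immunoproteasome transcripts. The myeloid marker sum was lower in each BrafYAP library than in each YAP library (3939 to 14887 against 15837 to 49647 in length-corrected TPM). Lyz2, the most abundant of these markers, overlapped between the groups, with 11029 in YAP replicate 3 and 12011 in BrafYAP replicate 1. The MHC class II genes summed to 8436 to 35855 in YAP and 2840 to 8048 in BrafYAP. Of these 5 genes, 4 were lower in each BrafYAP library than in each YAP library (17.1% of all genes, both on scaled reads). Within BrafYAP, replicate 6 had the highest value of each of the 10 class I genes, the highest class II sum (8048, against 5031 and 2840 in replicates 1 and 2) and the lowest myeloid sum (3939). T cell markers summed to 16.2 to 40.3 in YAP and 153 to 586 in BrafYAP. Most of the BrafYAP sum came from the T cell receptor gene Trbc2 (126, 288 and 454 in replicates 1, 2 and 6). Trbc1 was also higher in BrafYAP, while the defining markers Cd3d, Cd3e and Cd3g were each at most 1.17. On scaled reads, 6 of 9 tested T cell markers had a log2 difference below 0 and 3 above. Their median was -1.31, against -0.12 over all genes. NK markers summed to at most 9.57, B cell markers to at most 5.33 and endothelial markers to at most 31.7 (YAP replicate 2, mostly Kdr). The part of these cells in the class I differences was not tested.

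GC content moved with YAP replicate 1. Its median deviation from the gene means was 0.21 on the log2 scale in the eighth of genes lowest in GC and -0.78 in the highest (57.5 to 73.7% GC), whereas the other libraries stayed between -0.18 and 0.29. Apart from B2m (41.2%), the 10 genes had 52.5 to 57.1% GC. YAP replicate 1 had the lowest YAP value of H2-K1, H2-D1, Tap1 and Tapbp, and by a small margin of Tap2 and Psmb8. After a correction for GC, added after the data were seen, the log2 differences were -0.72 for H2-K1, -0.06 for H2-D1, -0.93 for Tap1, -0.70 for Tapbp, -1.91 for B2m, -1.56 for Tap2, -2.11 for Psmb9 and -4.02 for Nlrc5, and 0 of the 9 genes on deposited values passed. Nlrc5 had a limma adjusted p of 0.0613.

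**Figure D5:**
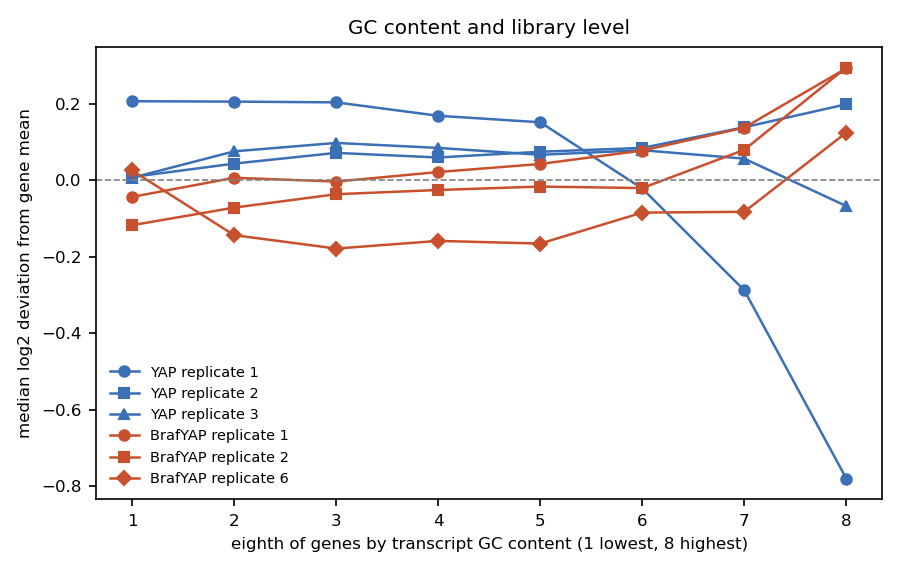
Median log2 deviation from the gene mean in each library, by eighth of genes ordered by transcript GC content. YAP replicate 1 goes from 0.21 in the lowest eighth to -0.78 in the highest, and the other libraries stay between -0.18 and 0.29.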

How the data were processed

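Sorted Kate-positive cells gave 3 YAP and 3 BrafYAP RNA-seq libraries, which were grouped by title. RNA was amplified for 12 cycles, and libraries had 8 further PCR cycles without molecular identifiers. The authors aligned the reads to mm10 with STAR (2.6.1d in the submitters' processing notes), quantified them with Partek E/M on Ensembl release 95 and deposited TPM with 0.0001 added. Low values (under 200 reads) multiplied by genomic span lay within 0.05 of whole steps in 71.7 to 76.1% of cases, against 14.0 to 22.8% with exonic length, so the deposited TPM had been divided by span. Estimated reads are the value less 0.0001, times the span, divided by the step of that library. Scaled reads use the mean step, which keeps the authors' scaling between libraries, and length-corrected TPM use the exonic length from GENCODE M21 (34645 symbols at 1 locus). Coordinates are those of GENCODE M21, counted from 1. Strand use in counting is not given in the sources used here, so overlapping genes can share reads. The labels give the pooling of tumors and the dox start followed here. The paper's methods instead give 1 tumor per mouse for each replicate, and its results text a later start of dox.

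Genotypes were compared, two-sided, with limma (version 3.58.1, R 4.3.3), using lmFit and then eBayes with its trend option. The input was log2(value + 1), which understates the change of low genes, and genes averaging under 1 were left out. P-values were adjusted by Benjamini-Hochberg, with 0.05 as threshold. Nlrc5 came from the same fit on log2(scaled reads + 1), where genes averaging under 10 scaled reads were left out. The code was tested on simulated data. No block or covariate entered the fit. The 10 genes and all lists were chosen with earlier results of these data known. All 10 genes were named, and of each other list those past the adjusted threshold or, if there were none, up to 4 with the smallest p, beside Psmb5, Psmb6, Psmb7, Calr, Canx, Pdia3, Psme1, Psme2, Irf1 and Ifng. A gene of the transcription list is not reported here. Ifnb1, Trbc1, Trbc2 and the marker genes named singly were chosen after their values were seen. Alternatives were other pseudocounts, filters and scalings, no trend, array weights, a replicate block and each library left out. A GC correction (loess, span 0.3) and gene-by-gene array weights were added after the data were seen.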

Additional observations from a re-analysis of the deposited data

How the results depend on the processing

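None of the 9 class I genes on deposited values passed the adjusted threshold in any alternative except array weights. With limma's default weights, whose estimation stopped before it converged (weight 21.9 for YAP replicate 3, 0.218 to 1.73 for the others), 7 class I genes and 34 genes of the other lists passed, among 3099 of 7319 genes overall. With the gene-by-gene estimate, added after the default had been seen to stop early, the counts were 5, 23 and 1393. For the other lists the count of 3 became 0 with a pseudocount of 0.1 or 0.0001, no filter, median-ratio scaling, no trend, the replicate block or scaled reads, 6 with quantile normalization and 5 with the GC correction. It ranged from 0 to 7 with a library left out. H2-D1 (0.06) changed sign to -0.31 with default array weights, -0.48 with gene-by-gene weights, -0.78 with the replicate block, -0.064 with the GC correction, and ranged from -0.707 to 0.949 with a library left out, below 0 without YAP replicate 1, YAP replicate 3 or BrafYAP replicate 6. The cause was not tested. No other class I gene changed direction. Nlrc5 also passed with array weights (-4.56 by default, -4.65 gene by gene). With a minimum mean of 10, 3 of 7 class I genes had an unadjusted p under 0.05 (14.4% of all genes). The 3 subunit ratios kept their direction in every alternative run. Over all genes, 18 passed, against 0 with the replicate block, 79 with quantile normalization, 62 with length-corrected TPM, 59 with the GC correction and 465 without YAP replicate 2. Median-ratio scaling moved the median of all genes by 0.075 on deposited values and by 0.125 on scaled reads. Same-numbered libraries did not deviate together (correlations -0.048 and 0.062 for replicates 1 and 2, 7319 genes), so the number is no evidence of pairing. Whether read depth limits these comparisons was not tested.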

Other observations

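Over the 6 libraries, the 5 genes whose pattern was most like the mean standardized profile of the 9 class I genes, among 2087 with a mean of at least 10, were Fosb (r = 0.960), the class II gene H2-Eb1 (0.957), Gm10282 (0.952), the class Ib gene H2-Q6 (0.927) and Pgf (0.921). These are descriptions over 6 libraries of both groups, so each r includes the difference between the groups. H2-Q6 was at 40.6, 69.1 and 34.1 in YAP and at 2.71, 1.84 and 42.3 in BrafYAP, so that BrafYAP replicate 6 lay within the YAP range. Fosb was at 13.1, 17.8 and 11.6 in YAP and at 7.56, 7.98 and 13.7 in BrafYAP.

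Among the class I genes, correlations over the 6 libraries fell into a range from 0.137 (H2-D1 and B2m) to 0.994 (Psmb9 and Psmb10). B2m correlated with Psmb9 (0.987), Psmb10 (0.967) and Nlrc5 (0.948). H2-D1 correlated with H2-K1 (0.912) and Tapbp (0.864), and with Nlrc5 at 0.151. The ratio of Tap2 to Tap1, whose genes lie near each other on chromosome 17, was 4.33, 0.963 and 3.23 in YAP and 1.6, 1.49 and 1.44 in BrafYAP by length-corrected TPM.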
